A study of Homo sapiens with 12 samples.

Results

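The comparison described here is that of U251 cells transfected with the siRNA siPDL1-2 against cells transfected with the control siRNA siNC, both stimulated with IFNγ. Its members were chosen from the sample labels alone and are 4 of the 12 RNA-seq libraries of the series, 2 siPDL1-2 and 2 siNC libraries. The U251 line derives from a human glioblastoma and is grown as an established culture. The study silenced *PD-L1* (gene symbol *CD274*) with 2 siRNAs, siPDL1-1 and siPDL1-2, and asked which transcripts changed beside it. All groups used here were U251 cells in which no gene had been edited. The IFNγ groups received 100 U/ml of IFNγ for 24 h, beginning 48 h after transfection, and the unstimulated groups received none. The libraries of a group came from 2 independent experiments per the methods, so each p-value rests on 2 libraries a side.

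IFNγ binds a receptor that signals through the JAK kinases to transcription factors that enter the nucleus and induce a first set of genes. One of these, *IRF1*, encodes a second factor that acts on many of the same promoters. The induced genes include the chemokines that attract T cells, the antigen presentation machinery, and genes that restrain T cells. PD-L1 belongs to the last kind: on the surface of tumor cells it engages the receptor PD-1 on T cells and dampens them.

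The libraries showed the glioma and astroglial profile that the label calls for. The summed level of 11 glioma and astroglial markers was 4525 and 4680 CPM (normalized reads scaled to library size) with siNC and 4916 and 5091 CPM with siPDL1-2, and 1 of the 11, *OLIG2*, was below 1 CPM in all 4. All 7 leukocyte markers were below 1 CPM in the 4 libraries, and 3 of them were at 0. Depth differed between the groups, at 55657393 and 50017519 reads for siNC and 17101069 and 30679665 reads for siPDL1-2, so that 1 read was worth between 0.0187 and 0.0586 CPM over the series.

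siPDL1-2 altered the expression of 499 of 17148 genes tested after IFNγ (2.91%), among them 309 (1.8%) that were higher and 190 (1.11%) that were lower than with siNC. A gene was called when its false discovery rate (FDR), from limma and adjusted by Benjamini-Hochberg across every gene tested, was under 0.01 and its fold change above 1.5. Fold changes are given as log2 differences of CPM plus 1, with negative values for genes lower with siPDL1-2. The median over all genes tested was -0.0073, and 51.3% of them lay below 0. These values, with 1.8% called higher and 1.11% called lower, are the background for the gene lists below. The immune genes that fell were few. They included *CD274* and some strongly IFNγ-induced transcripts, namely the chemokines *CXCL9*, *CXCL10* and *CXCL11*, and *IDO1*. The largest increases above 5 CPM were those of *PSAT1*, *C4orf48*, *ALDH3A1*, *SEMA6B* and *CBX1*. The number of calls rested on both siPDL1-2 libraries, since it was 172 without the first replicate and 143 without the second. The genes called higher had a median transcript GC content of 60.7% and those called lower of 41.8%, against 48.6% over all genes tested. The 2 siNC libraries also differed along GC content: siNC replicate 1 exceeded replicate 2 in 77.7% of the genes called higher and in 35.3% of those called lower, against 51.7% of all genes tested. With a trend on transcript GC content and length removed, 370 genes were called, 203 higher and 167 lower, and 272 of them were among the 499, but the part of GC content in the calls was not tested.

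**Figure D1:**
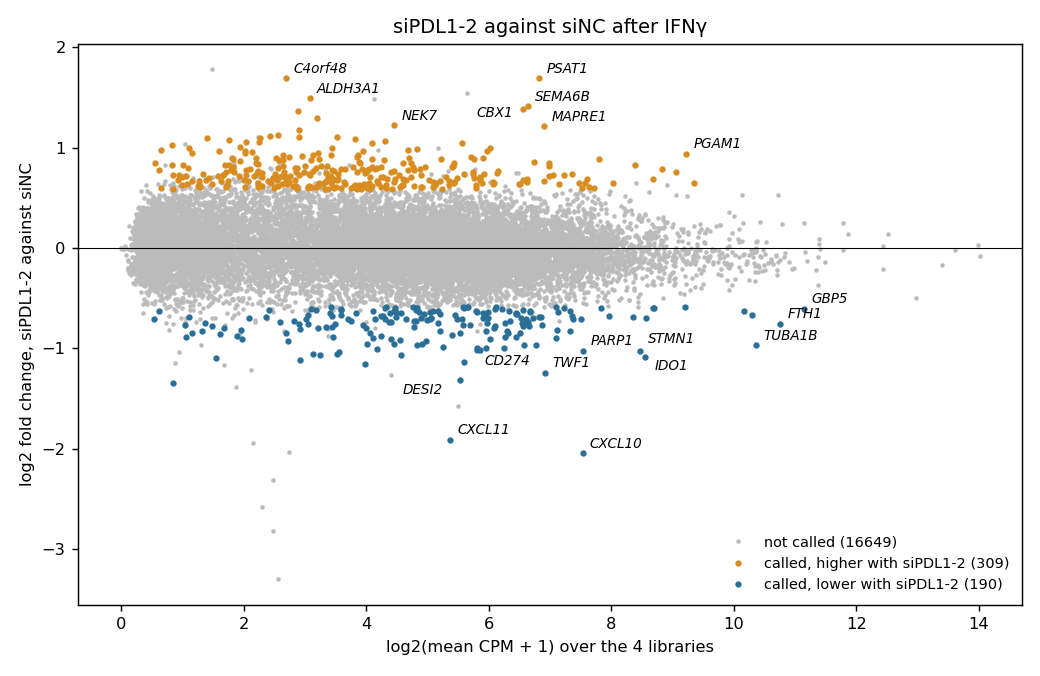
Each point is 1 of the 17148 genes tested, with the mean level over the 4 libraries on the horizontal axis (log2 of CPM plus 1) and the log2 difference of siPDL1-2 from siNC after IFNγ on the vertical axis. The 309 genes called higher and the 190 called lower are colored, with *PSAT1* at 1.69 among the highest and *CXCL10* at -2.05 the lowest of the labelled genes.

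*CD274*, the targeted gene, fell to 0.493 times its control level. After IFNγ its level was 71.2 and 76.0 CPM with siNC, and 37.5 and 35 CPM with siPDL1-2. Both siPDL1-2 libraries lay below both siNC libraries, and also below the siPDL1-1 libraries, which held 60.9 and 66.7 CPM. The log2 difference from siNC was -1.001 ± 0.0732 (SE; FDR = 2.79e-05), and that from siPDL1-1 was -0.80 (FDR = 5.03e-05), both called. In unstimulated cells *CD274* was low, at 4.6 and 4.91 CPM with siNC and 3.57 and 3.45 CPM with siPDL1-2, a difference of -0.35 that was not called. IFNγ still raised *CD274* in siPDL1-2 cells, by 3.05 on the log2 scale (FDR = 6.73e-14), compared with 3.70 in siNC cells.

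The 3 ligands of the chemokine receptor CXCR3, which draw activated T cells and NK cells to sites of IFNγ production, were all lower with siPDL1-2, by a median of -1.91 on the log2 scale. They were 3 of 3 called lower, where 1.11% of all genes tested were. *CXCL10* held 285 and 309 CPM with siNC and 69.7 and 72.5 CPM with siPDL1-2, and *CXCL11* held 61.7 and 67.2 CPM against 17.2 and 15.6 CPM. *CXCL9* held 39.8 and 37.6 CPM against 19.4 and 19.7 CPM. The libraries of the 2 groups did not overlap for any of the 3, and all 3 calls were kept under every other test, scaling, filter, grouping and left-out library run, while with a fold change threshold of 2 in place of 1.5 that of *CXCL9* was lost. The fold was 0.239 for *CXCL10* (log2 -2.05 ± 0.0741, FDR = 2.38e-07), 0.255 for *CXCL11* (log2 -1.91 ± 0.112, FDR = 1.18e-05) and 0.504 for *CXCL9* (log2 -0.95, FDR = 4.83e-05). Without IFNγ all 3 were at or near 0 in both groups, with no library above 0.0759 CPM, so the difference was measurable in stimulated cells alone. Induction was large in both groups, with *CXCL10* rising by 8.17 on the log2 scale in siNC cells and by 6.12 in siPDL1-2 cells.

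*CXCL10* and *CXCL11* had the largest decreases among the immune genes, and *CXCL9* is a ligand of the same receptor. IFNγ and NF-kB both act through short DNA elements. For these reasons the promoters of the 3 chemokines and of 2 NF-kB pathway genes that also fell (*NFKBIA* and *TNFAIP3*, described below) are shown. Each is the RefSeq sequence of GRCh38.p14 from 250 bases before to 50 bases after the gene's start, given 5′ to 3′ on the gene's strand, and capitals mark matches on either strand to the ISRE core (GAAA, 2 bases of any kind, then GAAA, bound by IRF factors), the GAS element (TTC, 3 bases of any kind, then GAA, the IFNγ-activated site) and a kappaB site (GGGA, 2 bases of any kind, then TTCC, bound by NF-kB). The kappaB letters were added after the values had been seen.
CXCL9 (chr4:76007460-76007759, minus strand): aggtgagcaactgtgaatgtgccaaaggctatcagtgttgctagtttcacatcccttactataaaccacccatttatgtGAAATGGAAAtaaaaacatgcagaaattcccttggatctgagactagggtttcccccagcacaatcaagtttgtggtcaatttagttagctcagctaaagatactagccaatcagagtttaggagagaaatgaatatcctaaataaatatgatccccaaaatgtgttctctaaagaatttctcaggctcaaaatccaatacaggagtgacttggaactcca
CXCL10 (chr4:76023448-76023747, minus strand): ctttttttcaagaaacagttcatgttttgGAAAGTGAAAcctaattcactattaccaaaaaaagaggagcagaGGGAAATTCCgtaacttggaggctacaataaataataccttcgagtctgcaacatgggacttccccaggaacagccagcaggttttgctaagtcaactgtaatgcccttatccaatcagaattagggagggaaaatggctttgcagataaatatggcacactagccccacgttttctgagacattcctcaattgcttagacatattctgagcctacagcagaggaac
CXCL11 (chr4:76036021-76036320, minus strand): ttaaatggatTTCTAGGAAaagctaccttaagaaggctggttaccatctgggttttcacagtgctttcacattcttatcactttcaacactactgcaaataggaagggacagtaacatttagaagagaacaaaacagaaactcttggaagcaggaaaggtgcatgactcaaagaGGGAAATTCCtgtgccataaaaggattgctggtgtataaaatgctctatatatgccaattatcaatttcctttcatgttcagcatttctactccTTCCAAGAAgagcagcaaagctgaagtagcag
NFKBIA (chr14:35404700-35404999, minus strand): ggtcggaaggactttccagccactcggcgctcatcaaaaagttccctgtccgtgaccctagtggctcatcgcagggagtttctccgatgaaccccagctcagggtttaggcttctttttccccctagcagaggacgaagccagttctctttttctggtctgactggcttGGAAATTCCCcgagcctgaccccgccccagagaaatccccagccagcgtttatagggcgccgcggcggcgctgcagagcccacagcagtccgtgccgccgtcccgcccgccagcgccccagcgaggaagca
TNFAIP3 (chr6:137867009-137867308, plus strand): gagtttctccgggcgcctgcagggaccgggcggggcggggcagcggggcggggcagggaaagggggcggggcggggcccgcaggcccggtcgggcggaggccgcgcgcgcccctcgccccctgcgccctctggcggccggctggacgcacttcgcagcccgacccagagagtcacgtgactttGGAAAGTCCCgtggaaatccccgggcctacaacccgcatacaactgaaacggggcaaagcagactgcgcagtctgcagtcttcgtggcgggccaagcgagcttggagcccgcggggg

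The *CXCL9* window held an ISRE core match from base 80, and the *CXCL10* window an ISRE core match from base 30 and a kappaB match from base 74. The *CXCL11* window held GAS matches from bases 11 and 269 and a kappaB match from base 175. *NFKBIA* and *TNFAIP3* each held a single kappaB match, from bases 170 and 184. These 2 were chosen for printing because they held one. Of the other called NF-kB genes and chemokines, *NFKBIZ* and *CXCL2* held kappaB matches in their windows, and *BIRC3*, *SOD2* and *CXCL8* held none of the 3 motifs there. No 2 of the matches in the printed sequences overlapped. Among all 27305 RefSeq promoters of this length, 3.65% held the ISRE core, 7.88% the GAS element and 1.63% the kappaB letters. Among the 11884 of these that belong to genes tested, the shares were 3.04%, 6.36% and 1.65% in the same order. Of the 190 genes called lower, 140 had a promoter in this table, and 10 of these (7.14%) held the kappaB letters, 9 (6.43%) the ISRE core and 11 (7.86%) the GAS element. Of the 202 genes called higher that had one, 4 (1.98%) held the kappaB letters, 3 (1.49%) the ISRE core and 7 (3.47%) the GAS element. These shares are descriptions of letters in a window and carry no test. Only exact matches to the letters given were marked. Elements that depart from them were not searched for, so a window without a match may still hold such a site.

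*IDO1*, the enzyme that opens the kynurenine pathway of tryptophan breakdown and starves T cells of tryptophan, fell to 0.47 times control. It held 508 and 516 CPM with siNC and 237 and 244 CPM with siPDL1-2, and the groups did not overlap (log2 -1.09 ± 0.0527, FDR = 1.84e-06). The siPDL1-1 libraries held 243 and 233 CPM, close to those of siPDL1-2, and the difference between the 2 siRNAs was 0.015 (FDR = 0.891). *IDO1* was the single called gene among 13 measured members of the tryptophan and kynurenine pathway, whose median was -0.22, and the most abundant of the others, the tryptophanyl-tRNA synthetase *WARS1*, differed by -0.22. With a pseudocount of 0.1 or with edgeR's test, 2 members of that pathway list were called lower. Of 21 checkpoint and immunosuppressive genes, *CD274* and *IDO1* were called lower and none higher, with a median of 0.041. With DESeq2's size factors, and with edgeR's or DESeq2's test, 1 of the 21 was called higher. The abundant members that were not called included *TGFB1*, the immunosuppressive cytokine, at 0.58, the poliovirus receptor *PVR*, a ligand of TIGIT, at 0.30, *NECTIN2* at 0.21 and *CSF1* at -0.11.

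**Figure D2:**
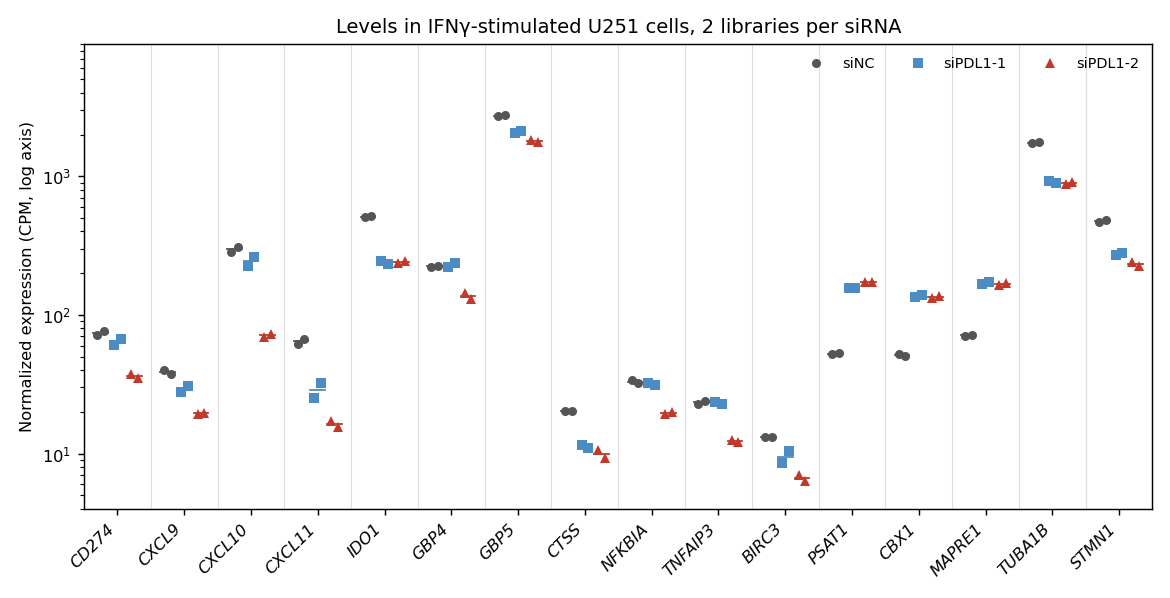
Level of 16 genes in the 6 IFNγ-stimulated libraries, as CPM on a log axis, with 1 point per library and a bar at the mean of each group of 2. The siPDL1-2 points of *CXCL10* lie at 69.7 and 72.5 CPM below the siNC points at 285 and 309 CPM, and those of *PSAT1* lie at 172 CPM above the siNC points at 52.2 and 53.1 CPM.

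Most of the IFNγ pathway itself was not called. None of 25 measured genes of the IFNγ receptor, JAK, STAT, SOCS and IRF families was called, and their median was -0.032. A call needs both the FDR and the fold change, so a gene not called may still have a low FDR. *IRF1* held 550 and 531 CPM with siNC and 369 and 396 CPM with siPDL1-2 (log2 -0.50). Its siPDL1-2 libraries lay below the siNC libraries, but the difference was smaller than 1.5-fold. With the GC and length trend removed *IRF1* differed by -0.54 (limma, FDR = 5.94e-08), and it was not called for the same reason. In siPDL1-2 cells IFNγ raised *IRF1* by 4.83 on the log2 scale. The kinase *JAK1* differed by -0.09 and was not called.

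None of 21 class I antigen presentation genes was called (median 0.06), with *B2M*, the invariant chain of class I molecules, at -0.27 and the peptide transporter *TAP1* at -0.04. Of 15 class II genes, 1 was called, *CTSS*, the protease that trims the invariant chain. It held 20.3 and 20.1 CPM with siNC and 10.6 and 9.29 CPM with siPDL1-2, and fell by 0.96 on the log2 scale (FDR = 1.44e-04). The invariant chain *CD74* differed by -0.02 and the class II transactivator *CIITA* by -0.21.

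The list of guanylate binding proteins (GBPs), IFNγ-induced GTPases that attack intracellular pathogens, leaned lower, with 7 of 8 measured members below 0, a median of -0.41 and 2 called. The list also held *IFI16* (-0.15), a DNA sensor, and *IFI35* (0.23), which are not GTPases and were not called, and *IFI35*, named after its value was seen, was the member above 0. *GBP4* fell from 221 and 227 CPM to 144 and 131 CPM (log2 -0.70, FDR = 1e-04), and *GBP5*, the most abundant of them, from 2705 and 2778 CPM to 1833 and 1768 CPM (log2 -0.61, FDR = 3.97e-05). *GBP1*, *GBP2* and *GBP3* differed by -0.46, -0.42 and -0.41 and were not called. The call of *GBP5* was lost without siPDL1-2 replicate 2, which left 1 called gene in the group, and with the GC and length trend removed.

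Of 31 type I interferon-response genes, 3 were called higher with siPDL1-2, where 1.8% of all genes tested were, and the median was 0.094. None was called lower. Of the 31, 12 lay below 0, with *IFIT1*, named after its value was seen, the lowest at -0.57. *IFI6* held 55.7 and 47.3 CPM with siNC and 80.9 and 95.3 CPM with siPDL1-2 (log2 0.76), and *IFI27* held 8.84 and 7.72 CPM against 15.1 and 14.9 CPM (log2 0.79). *HERC6* differed by 0.66. These levels were far below those with siPDL1-1, which reached 501 and 461 CPM for *IFI6*. Without siPDL1-2 replicate 1 a single gene of the list stayed called higher, and without replicate 2 none did.

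NF-kB carries inflammatory signals, and it induces its own inhibitors. Of 23 genes of the pathway, 5 were called lower with siPDL1-2, where 1.11% of all genes tested were, and none higher. Of the 23, 20 lay below 0 (median -0.22), against 51.3% of all genes tested. The called genes were *NFKBIA*, which encodes the inhibitor IκBα, *TNFAIP3*, the ubiquitin-editing inhibitor A20, *NFKBIZ*, a nuclear member of the IκB family, the antiapoptotic *BIRC3* and the mitochondrial superoxide dismutase *SOD2*. *TNFAIP3* held 22.9 and 24.0 CPM with siNC and 12.6 and 12.1 CPM with siPDL1-2 (log2 -0.87, FDR = 1e-04), and *NFKBIA* held 33.7 and 32.4 CPM against 19.3 and 19.9 CPM (log2 -0.72, FDR = 1.54e-04). *BIRC3* held 13.2 CPM in both siNC libraries and 7.04 and 6.38 CPM with siPDL1-2 (log2 -0.88). In each of these genes the groups were apart. The subunit *RELA* differed by -0.01 and the inhibitor-binding protein *TNIP1* by -0.21, neither called. *NFKBIZ* (log2 -0.77) shares its strand with the overlapping gene *NXPE3*, and *SOD2* (log2 -0.68) overlaps *WTAP* and *ACAT2* on the other strand, and since both strands were counted, reads of such pairs cannot be told apart. The calls of *BIRC3* and *NFKBIZ* were lost without siPDL1-2 replicate 2, and that of *BIRC3* also without replicate 1.

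Among 17 other chemokines and cytokines, *CXCL8* and *CXCL2*, neutrophil attractants and classical NF-kB targets, were called lower and none higher (median -0.13). *CXCL8* held 3.20 and 2.80 CPM with siNC and 0.938 and 0.793 CPM with siPDL1-2 (log2 -1.10, FDR = 0.00101), and *CXCL2* held 2.38 and 2.68 CPM against 0.880 and 1.26 CPM (log2 -0.78, FDR = 0.00403). Both calls were lost when either siPDL1-2 library was left out, and that of *CXCL2* also without siNC replicate 2, and the levels correspond to few reads in these libraries. Both genes were also called lower in unstimulated cells, at -1.88 and -1.12.

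**Figure D3:**
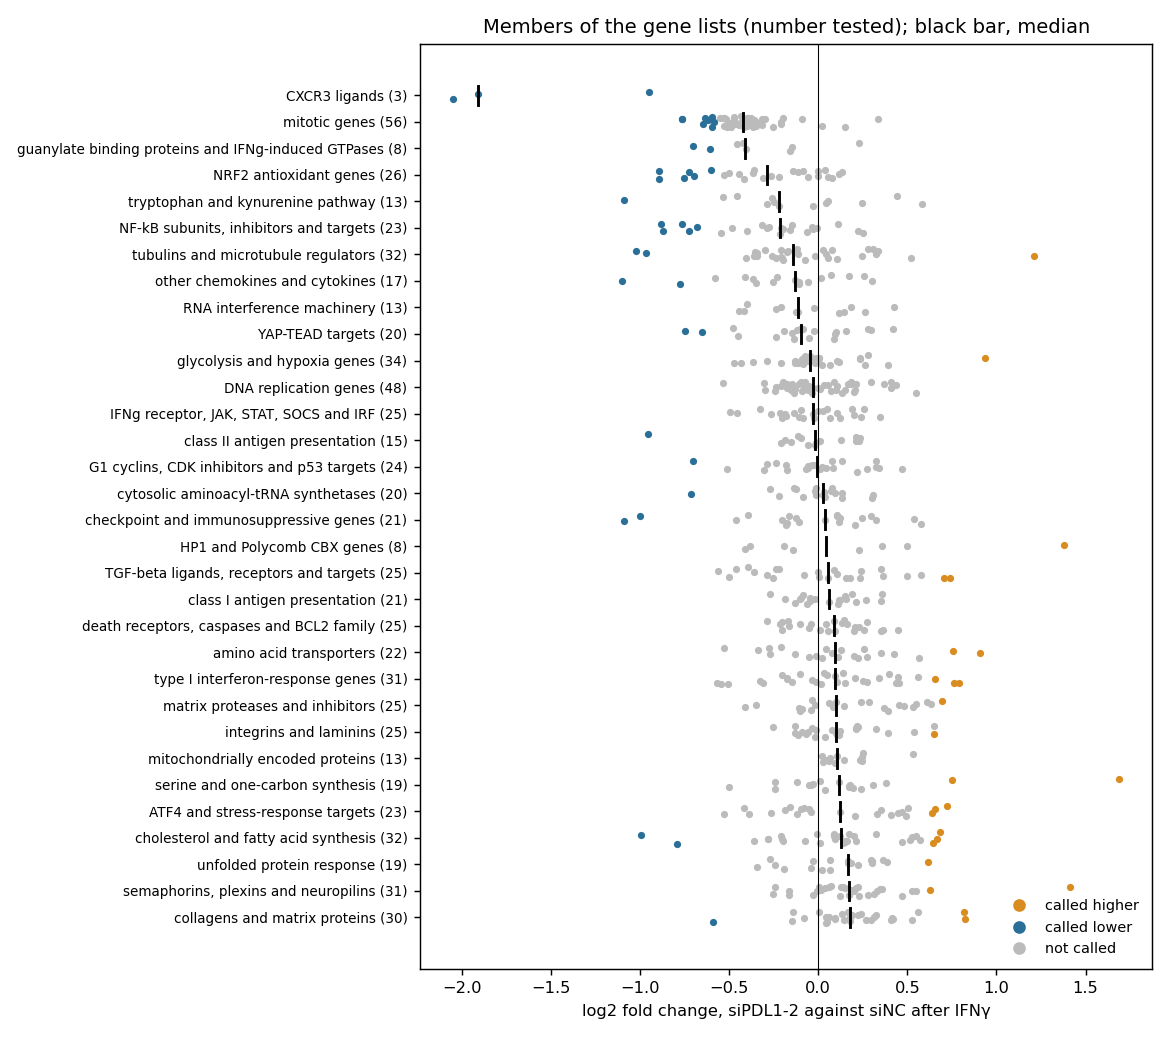
Log2 differences of siPDL1-2 from siNC after IFNγ for every tested member of the gene lists, with 1 row per list, 1 point per gene, called genes colored and a black bar at the median. The 3 CXCR3 ligands lie between -2.05 and -0.95, the mitotic genes have a median of -0.42, and most class I antigen presentation genes lie near their median of 0.06.

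The largest increase among genes of known metabolism was that of *PSAT1*, the aminotransferase of the serine synthesis pathway. It held 52.2 and 53.1 CPM with siNC and 172 CPM in both siPDL1-2 libraries, a fold of 3.27 (log2 1.69 ± 0.0555, FDR = 1.52e-07). The siPDL1-1 libraries held 156 and 158 CPM, and the 2 siRNAs differed by 0.13. Most of the pathway was not called. Of 19 serine and one-carbon genes, 2 were called higher, *PSAT1* and the mitochondrial folate enzyme *ALDH1L2*, and the median was 0.11. *PHGDH*, which catalyzes the step before *PSAT1*, differed by 0.24, and the mitochondrial enzymes *MTHFD2* and *SHMT2* by -0.12 and 0.01. *ALDH1L2* held 3.60 and 3.82 CPM with siNC and 7.56 and 6.35 CPM with siPDL1-2 (log2 0.75). It overlaps *WASHC4* and *C12orf45* on the other strand, and its call was lost without either siPDL1-2 library.

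ATF4 drives amino acid synthesis and transport in stressed cells. Of 23 measured ATF4 and stress-response targets, 3 were called higher, where 1.8% of all genes tested were, and none lower (median 0.12). They were *TRIB3* (log2 0.72), a feedback inhibitor of the pathway, at 108 and 91.8 CPM with siNC and 159 and 170 CPM with siPDL1-2, the glutathione-degrading *CHAC1* (0.66) and the stress cytokine *GDF15* (0.64). *ATF4* itself differed by -0.05, and the cystine transporter *SLC7A11* by -0.53, which was not called. Without either siPDL1-2 library no gene of this list was called, and with the GC and length trend removed all 3 lost their calls. Of 22 amino acid transporters 2 were called higher, *SLC43A2* (0.91) and *SLC1A4* (0.76), with a median of 0.093, and without either siPDL1-2 library 1 of them stayed called. Of 20 cytosolic aminoacyl-tRNA synthetases 1 was called lower, *FARSB* (-0.71), with a median of 0.027. In the unfolded protein response list, *SDF2L1* (0.62), an endoplasmic reticulum chaperone, was the single call among 19 genes (median 0.17). The calls of *FARSB* and *SDF2L1* were lost with the GC and length trend removed, as was that of *SDF2L1* without either siPDL1-2 library or siNC replicate 2.

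NRF2 induces enzymes that make glutathione and detoxify quinones and heme. Of 26 measured NRF2 antioxidant genes, 6 were called lower, where 1.11% of all genes tested were, and none higher. Of the 26, 20 lay below 0, against 51.3% of all genes tested, and the median was -0.29. *GCLM*, the regulatory subunit of the enzyme that limits glutathione synthesis, held 171 and 182 CPM with siNC and 94.5 CPM in both siPDL1-2 libraries (log2 -0.89). *NQO1*, the quinone reductase, held 467 and 470 CPM against 284 and 294 CPM (log2 -0.70). The ferritin heavy chain *FTH1* held 2184 and 2174 CPM against 1261 and 1323 CPM (log2 -0.75). In all of these the siPDL1-2 libraries lay below the siNC libraries. The heme oxygenase *HMOX1* (-0.72), the thioredoxin reductase *TXNRD1* (-0.60) and the transporter *ABCC2* (-0.90) were also called. *FTL*, the ferritin light chain, differed by -0.50 and *PRDX1* by -0.42, neither called. Without siPDL1-2 replicate 2 the called members were 3, with a median of -0.32. *ALDH3A1*, an aldehyde dehydrogenase outside this list, went the other way, from 3.90 and 2.99 CPM to 11.6 and 11.2 CPM (log2 1.49).

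Of 34 glycolysis and hypoxia genes 1 was called, the phosphoglycerate mutase *PGAM1*, which rose from 418 and 398 CPM to 754 and 813 CPM (log2 0.94). The enzymes before and after it in the pathway, *PGK1* and *ENO1*, differed by -0.13 and -0.21, and *GAPDH* and *PKM* by -0.08 and -0.09, none called, and the list's median was -0.044. Cholesterol and fatty acid synthesis was mixed, with 3 of 32 genes called higher, 2 called lower and a median of 0.13. Over all genes tested 1.8% were called higher and 1.11% lower. *MSMO1*, a methylsterol oxidase, fell from 96.2 and 104 CPM to 50.1 and 49.4 CPM (log2 -0.996), and *HMGCS1*, which makes the precursor of mevalonate, fell from 82.2 and 87.7 CPM to 50.4 and 46.8 CPM (log2 -0.79). *SREBF1* (0.69), *FADS2* (0.67) and *TM7SF2* (0.65) were higher, each overlaps a neighboring gene (*RAI1*, *FADS1* and *FEN1*, and *VPS51* and *ZNHIT2*), and all 3 calls were lost with the GC and length trend removed. Without siPDL1-2 replicate 2 a single gene of the list was called higher.

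Mitotic genes leaned lower. Of 56 measured, 8 were called lower, where 1.11% of all genes tested were, and none was called higher. Of the 56, 53 lay below 0, against 51.3% of all genes tested, and the median was -0.42. *CDK1*, the kinase that drives entry into mitosis, held 142 and 150 CPM with siNC and 89.1 and 82.3 CPM with siPDL1-2 (log2 -0.76). *MAD2L1*, of the spindle checkpoint, held 119 and 121 CPM against 72.1 and 68.0 CPM (log2 -0.77), and the kinesin *KIF2C* held 169 and 171 CPM against 106 and 112 CPM (log2 -0.64). The groups did not overlap in any of these. The other called genes were *ECT2* (-0.65), *KIF23* (-0.62), *KIF20A* and *TTK* (both -0.60) and *PTTG1* (-0.59), of which *KIF20A* overlaps *BRD8* and *CDC23* on the other strand. The 3 genes above 0, named after their values were seen, were *HMMR* (0.34), *MYBL2* (0.15) and *PSRC1* (0.02). Without siPDL1-2 replicate 2 the called genes were 3 and without siNC replicate 2 they were 5, and with the GC and length trend removed 2 were called and the median was -0.34. Fewer cells in mitosis and less RNA of these genes per cell cannot be told apart in these libraries.

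None of 48 genes of DNA replication was called, and their median was -0.032. Among 24 G1 cyclins, CDK inhibitors and p53 targets, the CDK inhibitor *CDKN1B* was called lower (log2 -0.70), with 82.6 and 73.2 CPM against 45 and 50.04 CPM, and the median was -0.009. That call was lost without either siPDL1-2 library.

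Of 32 tubulins and microtubule regulators, 2 were called lower, 1 higher, and the median was -0.14. *TUBA1B*, the main α-tubulin, held 1732 and 1755 CPM with siNC and 875 and 907 CPM with siPDL1-2 (log2 -0.97, FDR = 2.09e-06). *STMN1*, which destabilizes microtubules, held 468 and 485 CPM against 241 and 227 CPM (log2 -1.02). *MAPRE1*, which encodes the plus-end binding protein EB1, rose from 71.0 and 71.1 CPM to 164 and 169 CPM (log2 1.21, FDR = 1.35e-06), a fold of 2.34. Reads of *TUBA1B* could be shared with other α-tubulin genes of near-identical sequence, of which *TUBA1C* differed by -0.36 and was not called.

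*CBX1*, which encodes the heterochromatin protein HP1β, rose from 52.2 and 50.6 CPM to 133 and 138 CPM, a fold of 2.63 (log2 1.38, FDR = 8.27e-07). It was the single call among 8 HP1 and Polycomb CBX genes, whose median was 0.046. Its HP1 relatives *CBX3* and *CBX5* differed by -0.41 and -0.38 and were not called. None of 13 genes of the RNA interference machinery was called (median -0.11).

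Few matrix and adhesion genes were called, beside shares over all genes tested of 1.8% called higher and 1.11% called lower. Of 30 collagens and matrix proteins, 4 lay below 0, 2 were called higher, 1 lower, and the median was 0.18. With the GC and length trend removed, 8 lay below 0 and the median was 0.096. *COL5A1*, a fibrillar collagen, rose from 257 and 228 CPM to 425 and 432 CPM (log2 0.82), *LOXL1*, a collagen cross-linking enzyme, from 32.3 and 27.4 CPM to 50.3 and 56.3 CPM (log2 0.82), and *COL6A3* fell (log2 -0.59). Of 25 integrins and laminins *ITGB4* was called higher (0.65), with 10 below 0 and a median of 0.10, of 25 matrix proteases and inhibitors *MMP15* (0.69), with 9 below 0 and a median of 0.099, and of 25 TGF-beta ligands, receptors and targets *LTBP3* (0.71) and *ID1* (0.74), with a median of 0.057. The calls of *LOXL1*, *ITGB4*, *MMP15* and *LTBP3* were lost with the GC and length trend removed and, like that of *ID1*, without siPDL1-2 replicate 2, and that of *COL6A3* was lost without that library, without siNC replicate 2 or with DESeq2's size factors. Those of *ITGB4*, *MMP15*, *LTBP3* and *ID1* were also lost without siPDL1-2 replicate 1, and that of *ITGB4* without siNC replicate 2. *ITGB4* overlaps *GALK1* on the other strand.

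*SEMA6B*, a transmembrane semaphorin of axon guidance, rose from 60.1 and 47.4 CPM to 139 and 149 CPM (log2 1.41, FDR = 4.76e-05). With *SEMA3B* (0.63) it made up the 2 calls among 31 semaphorins, plexins and neuropilins, whose median was 0.17. Over all genes tested 1.8% were called higher. Of 20 YAP-TEAD targets 2 were called lower (median -0.094). *CCN1* fell from 114 and 116 CPM to 70.3 and 66.5 CPM (log2 -0.75) and *CCN2* from 16.7 and 16.2 CPM to 10.4 and 9.88 CPM (log2 -0.65), and both encode secreted matricellular proteins. None of 13 mitochondrially encoded protein genes was called, and all 13 lay above 0 (median 0.10). None of 25 death receptor, caspase and BCL2 family genes was called (median 0.089). The call of *SEMA3B* was lost without either siPDL1-2 library, without siNC replicate 2 and with the GC and length trend removed, and that of *CCN2* without either siPDL1-2 library.

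Outside these lists, *DESI2*, of the deSUMOylating isopeptidase family, fell from 64.2 and 66.0 CPM to 26.1 and 25.1 CPM (log2 -1.31, FDR = 3.87e-06). *TWF1*, which binds actin monomers, fell from 167 and 173 CPM to 73.4 and 68.9 CPM (log2 -1.24), but its siPDL1-1 libraries were apart at 76.5 and 106 CPM and its call was lost when any 1 of the 4 libraries was left out. *PARP1*, the DNA damage sensor, fell from 248 and 250.8 CPM to 123 and 121 CPM (log2 -1.03, FDR = 3.64e-06). *BOLA3*, a mitochondrial iron-sulfur cluster factor, fell from 31.8 and 30.7 CPM to 13.7 and 15.2 CPM (log2 -1.07). Further decreases were those of the F-box gene *FBXO8* (-1.15), the kinase *CILK1* (-1.13), the noncoding RNA *LINC00707* (-1.11), *BRMS1L* (-1.06), *Z83844.2* (-1.06), cytochrome b5 *CYB5A* (-1.05) and *NME1-NME2* (-1.04). *CILK1* overlaps *FBXO9* on the other strand, *Z83844.2* lies with *PDXP* and *SH3BP1* on one strand, and *NME1-NME2* is a readthrough of the more abundant *NME1* and *NME2*, so their values are uncertain. The call of *BRMS1L* was lost without siPDL1-2 replicate 1, that of *NME1-NME2* without either siPDL1-2 library, and that of *Z83844.2* under 7 alternatives.

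Among the increases, *NEK7*, a kinase of the NLRP3 inflammasome, rose from 11.1 and 13.3 CPM to 30.4 and 29.0 CPM (log2 1.22). *GPR1*, a chemerin receptor, rose from 3.95 and 3.51 CPM to 8.85 and 9.55 CPM (log2 1.11). *C4orf48*, which encodes a small secreted peptide, held 3.11 and 1.20 CPM with siNC and 8.27 and 9.19 CPM with siPDL1-2 (log2 1.69, FDR = 0.00619). *TPGS1* (1.36) and *TMEM160* (1.30) had the same form, with siNC libraries at 4.46 and 2.03 CPM and at 5.09 and 3.61 CPM and siPDL1-2 libraries at 9.03 and 9.92 CPM and at 11.4 and 12.7 CPM. In all 3 genes the siNC libraries differed from each other more than the siPDL1-2 libraries did. The remaining genes named by size were the protocadherin *PCDH1* (1.17), the neuropeptide precursor *VGF* (1.13), *CAVIN3* (1.12), *CTXN1* (1.10) and complement factor D *CFD* (1.10). The calls of *C4orf48*, *TPGS1*, *VGF*, *CAVIN3*, *CTXN1*, *CFD* and *NEK7* were lost when either siPDL1-2 library was left out, and that of *TMEM160* without replicate 2. Those of *C4orf48* and *TPGS1* were also lost with a pseudocount of 0.1 and with the 4 libraries alone, and that of *CTXN1* with the GC and length trend removed.

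The same siRNA was also compared with siNC in unstimulated cells, in 4 other libraries. There siPDL1-2 altered the expression of 1110 of 17982 genes tested (6.17%), 870 higher (4.84%) and 240 lower (1.33%). Of the 309 genes called higher after IFNγ, 250 (80.9%) were above 0 in unstimulated cells, 92 were called higher there and 2 lower. Of the 190 called lower, 150 (78.9%) were below 0, 53 were called lower and 3 higher. Over all genes tested in both, 56.3% had the same sign. Across 14277 genes the log2 differences of the 2 comparisons had Pearson's r of 0.199 and Spearman's rho of 0.202, as a description across genes, which are not independent and share the siRNA and the cell line. The genes called the same way in both were 145, or 29.1% of those called after IFNγ and 13.1% of the 1107 called in unstimulated cells that were also tested after IFNγ.

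*PSAT1*, *CBX1*, *MAPRE1*, *PGAM1*, *PARP1*, *STMN1* and *TUBA1B* were called in the same direction without IFNγ. *PSAT1* held 63.9 and 60.8 CPM with siNC and 216 and 219 CPM with siPDL1-2 (log2 1.79, FDR = 1.13e-12). *CBX1* differed by 1.5, *MAPRE1* by 1.38, *PGAM1* by 0.95, *PARP1* by -1.05, *STMN1* by -0.86 and *TUBA1B* by -1.02. For these 7 genes the groups stood apart with and without IFNγ. By list, 11 of the 56 mitotic genes were called lower and 1 higher in unstimulated cells, with 50 below 0 and a median of -0.32. The NRF2 antioxidant genes had 9 called lower with a median of -0.37, among them *HMOX1* at -1.42 and *FTH1* at -1.16. The NF-kB genes had 4 called lower and 1 higher with a median of -0.29, with *TNFAIP3* at -1.10.

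**Figure D4:**
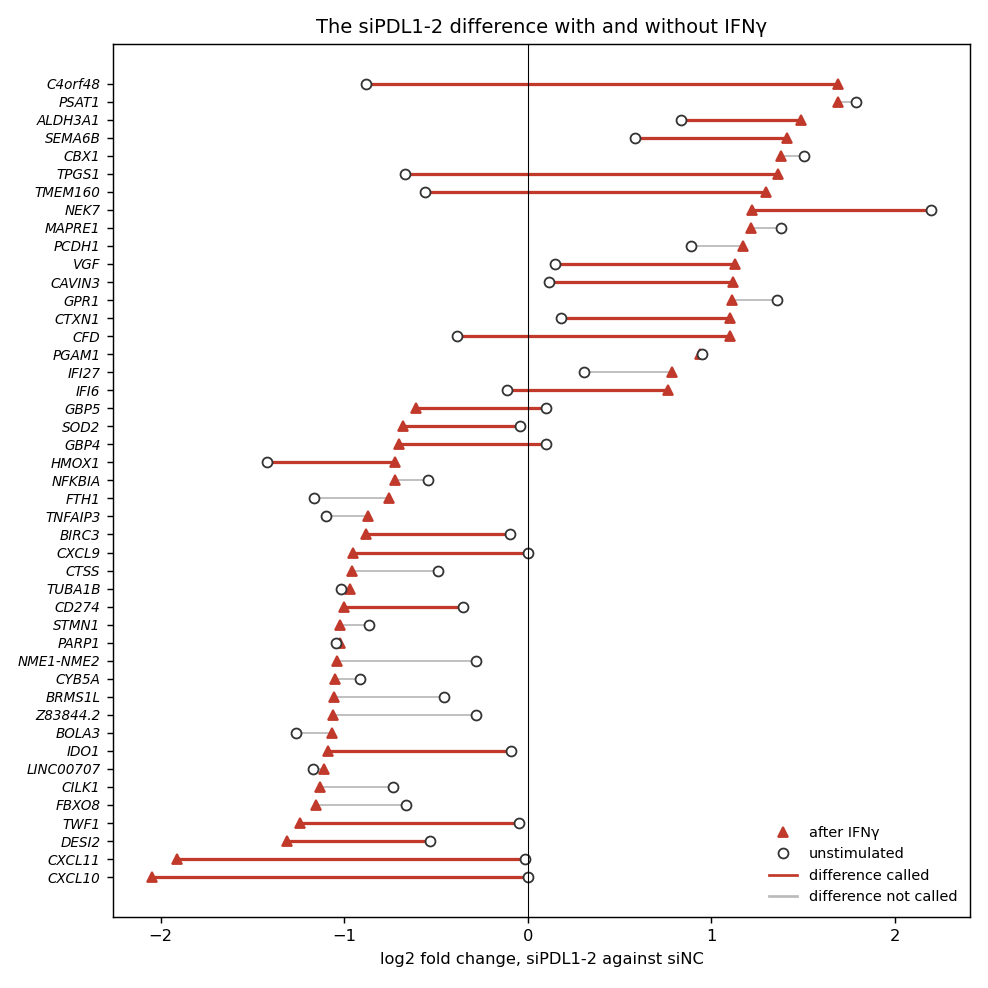
Log2 difference of siPDL1-2 from siNC for 45 named genes, 1 row each, after IFNγ (triangles) and in unstimulated cells (open circles), with a red line where the interaction was called and a grey line where it was not. The *PSAT1* points lie close together at 1.69 and 1.79, whereas those of *CXCL10* lie at -2.05 after IFNγ and near 0 without it.

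Whether the effect of siPDL1-2 depended on IFNγ was tested as an interaction over all 12 libraries. It was called for 1370 of 17982 genes (7.62%), 330 in the positive direction (1.84%), meaning a higher siPDL1-2 value relative to siNC with IFNγ than without, and 1040 in the negative direction (5.78%). The positive genes made up 24.1% of the calls. With DESeq2's size factors the share in the positive direction was 34.0% of 1357 genes. The number was 319 without siPDL1-2 replicate 2, with 11.0% positive, and 643 without siNC replicate 2. It was 1598 without siNC replicate 1, with 43.2% positive. Of the 309 genes called higher after IFNγ, 86 had a called interaction, and of the 190 called lower, 64 did. These included the 3 CXCR3 ligands and, among the GBP genes, *GBP4* at -0.80 and *GBP5* at -0.70. *CD274* (-0.65), *BIRC3* (-0.79), *SOD2* (-0.64), *DESI2* (-0.78) and *TWF1* (-1.19) had called interactions in the same direction. *IDO1* had an interaction of -0.998, and since *IDO1* and the CXCR3 ligands were near 0 in unstimulated cells this equals nearly the whole difference after IFNγ. *NEK7* differed from these, with a smaller increase after IFNγ than without it (log2 1.22 and 2.20, interaction -0.98), since IFNγ raised its siNC level from 6.12 and 6.50 CPM to 11.1 and 13.3 CPM. In the positive direction, *SEMA6B* (0.83) was higher with siPDL1-2 in both conditions, at 0.58 without IFNγ and 1.41 after it. *C4orf48* (2.58) and *CFD* (1.49) changed sign, from -0.88 and -0.39 without IFNγ to 1.69 and 1.10 after it. Their transcripts have a GC content of 74.4% and 65.1%, against a median of 48.6% over all genes tested. With the GC and length trend removed, the differences after IFNγ were 1.16 and 0.80. The interaction was not run with that trend removed, so the part of GC content in it was not tested. The call of *C4orf48* was lost without either siPDL1-2 library.

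To place the difference against the IFNγ response, genes were sorted by the effect of IFNγ in siPDL1-1 cells, which are neither side of the comparison with siNC. Their IFNγ libraries do enter that fit's estimate of the spread, and with the 4 siPDL1-2 and siNC libraries alone 529 genes were called in place of 499. There IFNγ altered 1236 of 17982 genes (6.87%), 1003 raised (5.58%) and 233 lowered (1.3%). After IFNγ, 30 of 31 type I interferon-response genes were called higher with siPDL1-1 than with siNC (median 2.83). The raised genes may therefore include some that are particular to siPDL1-1 cells. Of the 1003 raised genes, 43 (4.29%) were called lower with siPDL1-2 and 15 (1.5%) higher, 636 (63.4%) lay below 0, and the median was -0.10. Of the 229 lowered genes that were tested, 24 (10.5%) were called higher with siPDL1-2 and 2 (0.87%) lower, 60 (26.2%) lay below 0, and the median was 0.19. Of the 15916 other genes, 0.91% were called lower and 1.7% higher, 50.9% lay below 0, and the median was -0.0049. In siPDL1-2 cells themselves IFNγ altered 947 genes (5.27%), 651 raised (3.62%) and 296 lowered (1.65%), and in siNC cells 1460 genes (8.12%), 1200 raised (6.67%) and 260 lowered (1.45%). These last 2 counts rest on the libraries compared here, and their difference was not tested.

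siPDL1-2 was also compared with the second *PD-L1* siRNA in IFNγ-stimulated cells. They differed in 362 of 17148 genes (2.11%), 66 higher (0.385%) and 296 lower (1.73%) with siPDL1-2. This comparison and that with siNC share the siPDL1-2 libraries, so their values are set side by side only. The largest differences were in the type I interferon-response genes, of which 30 of 31 were lower with siPDL1-2 (median -2.57). *MX2* held 144 and 138 CPM with siPDL1-1 and 5.51 and 5.98 CPM with siPDL1-2, and *OAS1* held 239 and 234 CPM against 10.4 and 12.1 CPM. In siNC cells these antiviral genes held 4.16 and 4.07 CPM and 11.4 and 10.8 CPM. The siPDL1-2 libraries thus lay nearer to the siNC than to the siPDL1-1 libraries. For *MX2* they still lay above both siNC libraries (log2 0.40, not called). Between the 2 siRNAs, *OASL* (-3.98), *OAS2* (-3.90), *IFIT1* (-4.06) and the chemokine *CCL5* (-3.77) followed.

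Genes that fell with siPDL1-2 were divided in their siPDL1-1 level. *CXCL10* held 226 and 261 CPM with siPDL1-1, above the siPDL1-2 libraries (log2 -1.76, FDR = 7.6e-08), and *CXCL11* held 25 and 32.5 CPM (log2 -0.76, FDR = 0.00184). *CXCL9* held 27.7 and 30.8 CPM, and its difference of -0.56 was not called. *NFKBIA* (-0.67), *TNFAIP3* (-0.86), *NFKBIZ* (-0.92), *GBP4* (-0.74) and *HMOX1* (-1.04) were lower with siPDL1-2 than with siPDL1-1, and for *TNFAIP3* the siPDL1-1 libraries, at 23.6 and 22.7 CPM, lay near the siNC libraries at 22.9 and 24.0 CPM. By contrast *IDO1*, *CBX1*, *MAPRE1*, *TUBA1B* and *PSAT1* differed between the siRNAs by 0.015, -0.02, -0.04, -0.03 and 0.13, none called. Of the mitotic genes 2 were called higher and none lower, with 52 of 56 above 0 and a median of 0.24. Against siNC after IFNγ, siPDL1-1 had 40 of these 56 genes called lower and a median of -0.64. siPDL1-2 had 8 called lower and a median of -0.42. Of the collagens and matrix proteins 4 were called lower (median -0.26), with *COL6A3* at -1.01.

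The genes higher with siPDL1-2 than with siPDL1-1 included several that were lower with siPDL1-1 than in either other group. *RMND5A*, a subunit of a ubiquitin ligase, held 14.4 and 15.4 CPM with siPDL1-1, 40.7 and 41.2 CPM with siPDL1-2 and 35.3 and 36.8 CPM with siNC (log2 1.40 between the siRNAs). *PAF1*, of the elongation complex of that name, held 37.6 and 36.0 CPM, 88.0 and 92.1 CPM, and 86.9 and 85.4 CPM in the same order (log2 1.27). *GPR1* differed otherwise, with 3.26 and 2.87 CPM with siPDL1-1, near siNC, and a higher level with siPDL1-2 (log2 1.33). *SRPRA* (1.37) and *IFRD2* (1.03) followed, and *SRPRA* and *PAF1* each overlap a gene on the other strand (*FOXRED1* and *SAMD4B*).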

How the data were processed

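RNA-seq was measured in 12 libraries, 2 for each of 6 conditions taken from the sample labels. The signal values deposited by the authors are normalized CPM: in CLC Genomics Workbench they trimmed the reads, aligned them to GRCh38 (Ensembl genes), counted both strands and normalized. The methods and the labels name different extraction kits and sequencing instruments. Divided by the worth of 1 read, 100% of the values came out whole (tolerance 0.02), so reads were recovered (17101069 to 55657393 per library) for filtering and count tests. Precision at low levels was limited by depth.

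Genes were kept with edgeR's filterByExpr (minimum count 10, total 15), and log2(CPM + 1), with 1 as the pseudocount, was tested with limma 3.58.1 (trend, robust) in R 4.3.3 and called at FDR under 0.01 (Benjamini-Hochberg) and fold change above 1.5. edgeR's quasi-likelihood test (4.0.16) and DESeq2's Wald test (1.42.0) on the recovered reads were alternatives. The IFNγ libraries were fitted as 3 groups, and all 12 as 6 groups for unstimulated cells, interactions and IFNγ effects. The fits were tested on simulated data. Overlapping genes and transcript GC content came from GENCODE, and promoters from RefSeq (GRCh38.p14).

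The comparison, gene lists and motifs were chosen with earlier results of these data known. Named genes were the called list members, the 15 largest called changes each way above 5 CPM in a group without overlap between groups (6 each way for the other siRNA and for the interaction), and up to 4 abundant uncalled members per list; the results of 3 genes are not reported here. Alternatives were other size factors, pseudocount, filter, thresholds, groupings of libraries, tests, a replicate block and leaving out each library; a crossed block and removal of a GC and length trend were chosen after seeing the data. Replicate numbers were not shown to pair the samples.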

Additional observations from a re-analysis of the deposited data

Results flagged for a closer look

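The effect of siPDL1-2 relative to siNC differed with and without IFNγ for 1370 genes by the interaction test (limma, FDR under 0.01 and fold change above 1.5). Among the genes named here, the interaction was negative, meaning a lower difference of siPDL1-2 from siNC after IFNγ than without it, for *CXCL10* (-2.05), *CXCL11* (-1.89), *TWF1* (-1.19), *IDO1* (-0.998), *NEK7* (-0.98), *CXCL9* (-0.95), *GBP4* (-0.80), *BIRC3* (-0.79), *DESI2* (-0.78), *MSMO1* (-0.73), *GBP5* (-0.70), *CD274* (-0.65), *MAD2L1* (-0.64), *SOD2* (-0.64), *CDK1* (-0.61) and *GCLM* (-0.59). It was positive for *SREBF1* (0.59), *TRIB3* (0.63), *ALDH3A1* (0.66), *HMOX1* (0.70), *LOXL1* (0.70), *ID1* (0.72), *SEMA6B* (0.83), *GDF15* (0.87), *IFI6* (0.87), *CTXN1* (0.92), *CCN2* (0.92), *SDF2L1* (0.98), *VGF* (0.98), *CAVIN3* (1.00), *CFD* (1.49), *TMEM160* (1.86), *TPGS1* (2.03) and *C4orf48* (2.58). For *HMOX1* and *CCN2* the positive sign reflects a larger decrease in unstimulated cells than after IFNγ. *C4orf48* (-0.88), *TPGS1* (-0.67), *TMEM160* (-0.56), *CFD* (-0.39), *SDF2L1* (-0.36), *GDF15* (-0.24) and *IFI6* (-0.11) were below 0 in unstimulated cells. All of these were above 0 after IFNγ. The largest positive values in this paragraph were those of GC-rich transcripts, *C4orf48* at 74.4%, *TPGS1* at 74.1% and *TMEM160* at 72.2%. The median over all genes tested was 48.6%. The interaction was not run with the GC and length trend removed.

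Among the genes named for the size of their interaction, most overlap other genes, so that reads could be shared. The interactions were negative for *AC011511.4* (-6.16), which overlaps *RAVER1* and *FDX2*, *AL161665.1* (-5.32), which overlaps *ARHGAP5*, *AL035461.3* (-4.15), which overlaps *MCM8* and *CRLS1*, *AC139530.2* (-3.40), which overlaps *MRPL12* and *SLC25A10*, *UTP14C* (-2.48), which overlaps *ALG11*, and *FP565260.6* (-2.12). They were positive for *AL035078.4* (3.89), which overlaps *RCN1*, *AC099329.1* (3.61), which overlaps *HIGD1A*, and *CCDC85B* (2.35). *AL035078.4* had a mean of 0 CPM over the siNC and siPDL1-2 libraries after IFNγ, and its difference was -3.89 without IFNγ. *AC099329.1* differed by 0.33 after IFNγ and by -3.28 without it. The interactions of these genes thus came mostly from a lower level with siPDL1-2 in unstimulated cells. *CCDC85B* held 33.5 and 17.5 CPM in the siNC libraries after IFNγ and 67.9 and 78.0 CPM in the siPDL1-2 libraries, and in unstimulated cells 30.8 and 48.3 CPM against 20.3 and 23.0 CPM. *UTP14C* held 10.6 and 4.44 CPM in the siNC libraries after IFNγ and 0.762 and 0 CPM in the siPDL1-2 libraries.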

How the results depend on the processing

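For siPDL1-2 against siNC after IFNγ, 499 genes were called. The count was 1659 without a fold change threshold and 47 with a fold change above 2. It ranged from 143 (without siPDL1-2 replicate 2) to 700 (without siNC replicate 1) as each library was left out, with 172 without siPDL1-2 replicate 1 and 383 without siNC replicate 2, and the share called higher then ranged from 38.5% to 69.1%, against 61.9%. Other settings gave 370 (GC and length trend removed) to 602 genes (FDR under 0.05). For siPDL1-2 against siPDL1-1 the range over left-out libraries was 213 (without siPDL1-2 replicate 2) to 398 against 362, with 224 without siPDL1-2 replicate 1, for unstimulated cells 931 to 1112 against 1110, and for the interaction 319 (without siPDL1-2 replicate 2) to 1598 against 1370, with 643 without siNC replicate 2. The cause of these differences was not tested. No named gene changed direction, and 169 calls of named genes over all alternatives were lost, 42 without siPDL1-2 replicate 1, 53 without siPDL1-2 replicate 2 and 23 with the GC and length trend removed. Depth limits genes near 1 CPM most, since the first siPDL1-2 library held 17101069 reads.

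With replicate number as a block, 489 genes were called for siPDL1-2 against siNC after IFNγ, 330 against siPDL1-1, 1111 in unstimulated cells and 1326 for the interaction, no named gene lost its call against siNC or siPDL1-1 after IFNγ, and the interaction calls of *AC099329.1*, *CCDC85B* and *TPGS1* were lost. The deviations of same-numbered siNC and siPDL1-2 libraries after IFNγ correlated at -0.237 over 11588 genes, and over all 15 pairs of groups at -0.299 to 0.363. With the pairing crossed, 574 genes were called.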
